A study of Triticum aestivum with 12 samples.

Results

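VRT2 and SVP1 are MADS-box genes of wheat, and each is present as 3 copies, called homoeologs, on the A, B and D subgenomes. The 6 copies were chosen by identifier. VRT2 was taken as TraesCS7A01G175200 (VRT2-7A), TraesCS7B01G080300 (VRT2-7B) and TraesCS7D01G176700 (VRT2-7D), and SVP1 as TraesCS6A01G313800 (SVP1-6A), TraesCS6B01G343900 (SVP1-6B) and TraesCS6D01G293200 (SVP1-6D). They are 6 of the 128497 gene models in the count table. The table and the reference used here pair no identifier with a name, so the names VRT2 and SVP1 rest on that list of identifiers, and the chromosome of each copy is read from its identifier. RNA came from crowns of the cultivar Jing411, in 12 libraries. The 4 groups of 3 biological replicates were LTAF (28 days at 4 °C, then 24 hours at -5 °C), NTGF (28 days at 20 °C, then 24 hours at -5 °C), LTA (28 days at 4 °C) and NTG (28 days at 20 °C). All plants were of that cultivar, and the labels name no mutation or transgene in any group and do not say how many plants made up a sample. The crown is named in the extraction protocol, while the tissue field of the labels is worded differently. Since the identifiers carry no names, the tissue was not checked against marker genes.

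VRT2 and SVP1 encode transcription factors of the SVP-like branch of the MADS-box family, named after Short Vegetative Phase of Arabidopsis. In Arabidopsis, SVP keeps the plant vegetative by lowering the expression of the flowering genes FT and SOC1, and it is known as a link between ambient temperature and flowering time. In wheat, proteins of VRT2 and SVP1 bind the SQUAMOSA-type MADS-box proteins such as VRN1, the gene that prolonged cold switches on in winter cereals, and the pair is known to promote the early steps of spike formation and to shape spikelets. VRT2 is also known as the gene behind the long glumes of Polish wheat, in which it stays on longer in the young spike. The crown holds the shoot apex, where the change from leaves to spike takes place.

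Libraries held between 17871036 and 21491305 counted reads. Levels are given as CPM, read counts scaled to a common library size by the TMM method, which assumes that most genes do not differ between libraries. The TMM factors were 1.18 to 1.23 in the NTG libraries and 0.845 to 0.998 in all others. Comparisons with NTG therefore depend most on the scaling. Replicates of NTG and LTA had rank correlations of 0.964 to 0.979 across genes. LTAF replicate 2 stood apart from its group, at 0.935 and 0.917 where the other 2 LTAF libraries correlated at 0.978. Within NTGF the values were 0.932 to 0.947, and replicate 1 had the lowest 2. Values without LTAF replicate 2 and NTGF replicate 1 are given where they change a call. All 6 copies passed the filter on low counts.

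VRT2-7A lay at 67.5, 49.2 and 69.9 CPM in the LTAF libraries, at 26.0, 29.6 and 36.5 in NTGF, at 47.7, 51.7 and 42.6 in LTA and at 24.5, 23.5 and 27.6 in NTG. VRT2-7B lay at 72.7, 49.3 and 72.0 CPM in LTAF, at 23.1, 29.3 and 35.4 in NTGF, at 46.4, 44.6 and 39.5 in LTA and at 31.3, 33.6 and 31.8 in NTG. VRT2-7D lay at 83.1, 57.7 and 84.7 CPM in LTAF, at 27.6, 31.02 and 33.6 in NTGF, at 43.9, 47.7 and 41.3 in LTA and at 32.2, 32.6 and 33.5 in NTG. For each VRT2 copy every acclimated library, frozen or not, lay above every unacclimated library. How many of the tested models separate in this way was not counted. The acclimated libraries were highest after freezing, except that LTAF replicate 2 fell within the LTA range for VRT2-7A. LTAF replicate 2 was the lowest of its group and NTGF replicate 1 the lowest of its group for each VRT2 copy, and the counts behind a single value ran from 452 to 1457.

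**Figure D1:**
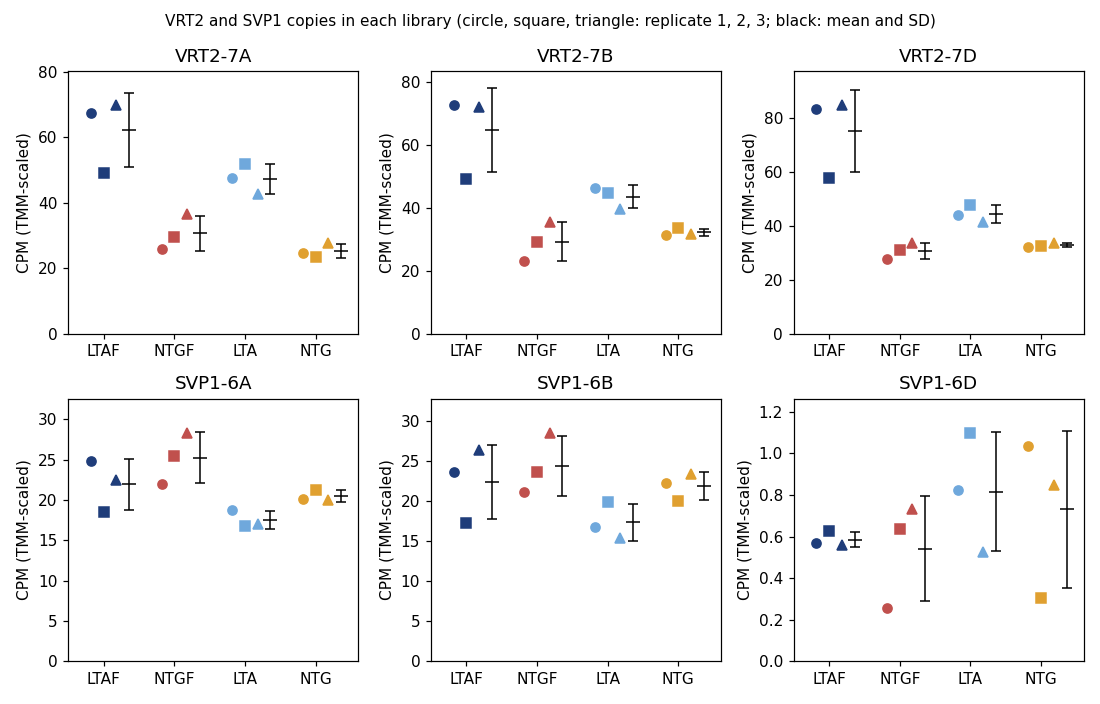
TMM-scaled CPM of each VRT2 and SVP1 copy (vertical axis, its own scale per panel) in the LTAF, NTGF, LTA and NTG libraries, with the mean and SD in black. VRT2 copies lie between 39.5 and 84.7 CPM in the 6 acclimated libraries and between 23.1 and 36.5 in the 6 unacclimated ones, SVP1-6A and SVP1-6B lie between 15.4 and 28.6 in all 12, and SVP1-6D does not exceed 1.10.

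LTA against NTG asks what 28 days at 4 °C change before any freezing. VRT2-7A and VRT2-7D were called higher in LTA, and VRT2-7B was not called. VRT2-7A averaged 47.3 ± 4.57 CPM in LTA and 25.2 ± 2.12 in NTG (SD, n = 3 each), a log2 fold change of 0.91 ± 0.18 (SE; edgeR adjusted p = 0.00179). VRT2-7D averaged 44.3 ± 3.24 CPM in LTA and 32.8 ± 0.666 in NTG, a smaller change of 0.44 ± 0.16 on the log2 scale (edgeR adjusted p = 0.0483). VRT2-7B, at 43.5 ± 3.59 CPM in LTA and 32.2 ± 1.19 in NTG, had a log2 fold change of 0.43 ± 0.19 and was not called (edgeR adjusted p = 0.0848). Its LTA and NTG libraries did not overlap, and how many tested models separate in this way was not counted. So 2 of the 3 VRT2 copies were called higher and 0 lower, where 20% of the 69693 tested models were called higher and 18.1% lower (38% in either direction) by edgeR's quasi-likelihood test. The median log2 fold change of the 3 copies was 0.44, against -0.06 over all tested models. In bulk crowns, more cells that express VRT2 and more VRT2 RNA per cell cannot be told apart, and neither can a response to cold and a difference in stage between plants grown at 4 and 20 °C.

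The call of VRT2-7A held in all 12 fits with a library left out, while that of VRT2-7D held in 4 of them, the highest adjusted p being 0.142 without LTA replicate 2. It ended without LTA replicate 1, 2 or 3, LTAF replicate 1, NTG replicate 1, 2 or 3 or NTGF replicate 2. VRT2-7B became called without both libraries that stood apart (log2 fold change 0.44, edgeR adjusted p = 0.0124) and in a fit of LTA and NTG alone (0.46, adjusted p = 0.00424). These settings called 16611 of 72185 and 17236 of 66161 tested models higher, in place of 13907 of 69693. Scaling by library totals moves the median of all tested models by -0.34 on the log2 scale; under it VRT2-7A was still called (0.56, adjusted p = 0.0149), and VRT2-7D had a change of 0.09 and was not (adjusted p = 0.633). The call of VRT2-7D also ended with RLE scaling (edgeR adjusted p = 0.0537) and no filter (0.0958).

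LTAF against NTGF asks the same of crowns that were frozen, in libraries other than those of the comparison above. All 3 VRT2 copies were higher in LTAF. VRT2-7A averaged 62.2 ± 11.3 CPM in LTAF and 30.7 ± 5.33 in NTGF, 2.03-fold, with a log2 fold change of 1.02 ± 0.18 (SE; edgeR adjusted p = 0.00102). VRT2-7B averaged 64.7 ± 13.3 CPM in LTAF and 29.2 ± 6.13 in NTGF, 2.21-fold and 1.14 ± 0.19 on the log2 scale (edgeR adjusted p = 0.000759). VRT2-7D averaged 75.2 ± 15.1 CPM in LTAF and 30.7 ± 2.97 in NTGF, 2.44-fold and 1.29 ± 0.16 on the log2 scale (edgeR adjusted p = 0.00015). In this comparison 39.8% of tested models were called, 20.2% higher and 19.6% lower. The LTAF and NTGF libraries did not overlap for any of the 3 VRT2 copies, a separation that was not counted over all tested models. Each call held in all 12 fits with a library left out, in which the log2 fold changes ran from 0.91 to 1.43. The SE above come from a spread shared by all 4 groups. In a fit of LTAF and NTGF alone they were 0.23, 0.25 and 0.22 for VRT2-7A, VRT2-7B and VRT2-7D. The calls held there with higher edgeR adjusted p values, of 0.0211, 0.0189 and 0.00933.

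LTAF against NTG sets the plants that met both treatments beside those that met neither, and uses the same LTAF and NTG libraries as the comparisons above. VRT2-7A was 2.47-fold higher in LTAF (log2 fold change 1.30 ± 0.18), VRT2-7B 2.01-fold (1.005 ± 0.19) and VRT2-7D 2.29-fold (1.20 ± 0.16). The edgeR adjusted p values were 0.00015, 0.00123 and 0.000143. All 3 were thus called higher, where 45% of tested models were called, 23.5% higher and 21.5% lower. In fits with a library left out none of these calls was lost. The sizes depend on the scaling. With library totals the log2 fold changes of VRT2-7A, VRT2-7B and VRT2-7D were 0.86, 0.56 and 0.75. All 3 were still called (edgeR adjusted p 0.00127, 0.0191 and 0.00143).

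NTGF against NTG asks what 24 hours at -5 °C change in plants that were not acclimated. No VRT2 copy was called. VRT2-7A averaged 30.7 ± 5.33 CPM in NTGF and 25.2 ± 2.12 in NTG (log2 fold change 0.28 ± 0.17, edgeR adjusted p = 0.257). VRT2-7B averaged 29.2 ± 6.13 CPM in NTGF and 32.2 ± 1.19 in NTG (-0.14 ± 0.19, edgeR adjusted p = 0.626). VRT2-7D averaged 30.7 ± 2.97 CPM in NTGF and 32.8 ± 0.666 in NTG (-0.09 ± 0.16, edgeR adjusted p = 0.716). Among tested models 25.8% were called, 14.2% higher and 11.7% lower. The NTGF and NTG libraries overlapped for all 3 copies. Of the 6 VRT2 and SVP1 copies, 0 had an unadjusted p under 0.05 in the main edgeR fit, a share not counted over all tested models. DESeq2 and limma-voom called 0 as well. Library totals moved the median of all tested models by -0.31. With them VRT2-7A was at -0.03, VRT2-7B at -0.45 and VRT2-7D at -0.41. None was called (edgeR adjusted p 0.921, 0.0754 and 0.0572), but the unadjusted p of VRT2-7B and VRT2-7D were 0.0245 and 0.0166. A p that misses the threshold does not show that the levels were equal.

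With LTAF and LTA the question is how plants already held at 4 °C respond to the freezing day. VRT2-7D rose to 75.2 ± 15.1 CPM in LTAF, against 44.3 ± 3.24 in LTA, 1.696-fold, with a log2 fold change of 0.76 ± 0.16 (edgeR adjusted p = 0.0169). VRT2-7B, at 64.7 ± 13.3 CPM in LTAF and 43.5 ± 3.59 in LTA, had a log2 fold change of 0.57 ± 0.19. It was not called (edgeR adjusted p = 0.097), although its groups did not overlap, a separation not counted over all tested models. VRT2-7A, at 62.2 ± 11.3 CPM in LTAF and 47.3 ± 4.57 in LTA, had a log2 fold change of 0.39 ± 0.17 (edgeR adjusted p = 0.221). So 1 of 3 VRT2 copies was called higher, beside 3.99% of tested models, and 0 were called lower, beside 1.92% (5.91% in either direction).

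The call of VRT2-7D was lost when LTAF replicate 1, LTAF replicate 3, LTA replicate 1 or LTA replicate 3 was left out, with adjusted p values up to 0.0914, and the log2 fold change then stayed between 0.67 and 0.76. LTAF replicate 2 was the lowest LTAF library for each VRT2 copy. Without it VRT2-7B was called too (0.70, edgeR adjusted p = 0.0269). Without it and NTGF replicate 1, a setting chosen after seeing the data, so were VRT2-7A (0.53, adjusted p = 0.0278) and VRT2-7B (0.73, adjusted p = 0.00503). These settings called 4405 of 72698 and 7109 of 72185 tested models higher, in place of 2783 of 69693.

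The interaction subtracts the log2 fold change of NTGF against NTG from that of LTAF against LTA, and so tests whether the freezing responses differ. It was 0.85 ± 0.23 for VRT2-7D (SE; edgeR adjusted p = 0.0344), 0.71 ± 0.26 for VRT2-7B (adjusted p = 0.0996) and 0.11 ± 0.25 for VRT2-7A (adjusted p = 0.814). VRT2-7D thus had a more positive response to freezing after acclimation, where 11% of tested models had a called term, 5.12% a positive and 5.91% a negative one. That call held without LTAF replicate 2 or NTGF replicate 3 and was lost without any other library (LTA replicates 1 to 3, LTAF replicates 1 and 3, NTG replicates 1 to 3, NTGF replicates 1 and 2), the highest adjusted p being 0.0948. VRT2-7B became called without LTAF replicate 2 (0.90, edgeR adjusted p = 0.0239) and without NTGF replicate 3 (0.86, adjusted p = 0.0442), and also without both LTAF replicate 2 and NTGF replicate 1 (0.75, adjusted p = 0.0228). These settings called a positive term in 6194 of 72698, 4948 of 72331 and 5862 of 72185 tested models, in place of 3566 of 69693.

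NTGF against LTA sets a day of freezing without acclimation beside 28 days of cold without freezing. All 3 VRT2 copies were lower in NTGF, with log2 fold changes of -0.63 ± 0.17 for VRT2-7A, -0.57 ± 0.19 for VRT2-7B and -0.53 ± 0.16 for VRT2-7D. The edgeR adjusted p values were 0.0139, 0.0285 and 0.0206, and 40.1% of tested models were called, 20.3% lower and 19.8% higher. Without LTA replicate 2 none of the 3 was called (adjusted p 0.0551, 0.075 and 0.0755), and without NTGF replicate 1 VRT2-7A alone was, while without LTA replicate 1 or NTGF replicate 2 the call of VRT2-7B ended (adjusted p 0.0832 and 0.0554), as it did in a fit of these 2 groups alone (0.0585).

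By mean level, VRT2-7A ran LTAF, LTA, NTGF and NTG from high to low. Only LTA and NTGF differed among neighbours in this order by the edgeR test. VRT2-7B and VRT2-7D both ran LTAF, LTA, NTG and NTGF. For VRT2-7D the step between LTAF and LTA and that between LTA and NTG passed the test and the last step did not. For VRT2-7B no step between neighbours passed.

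**Figure D2:**
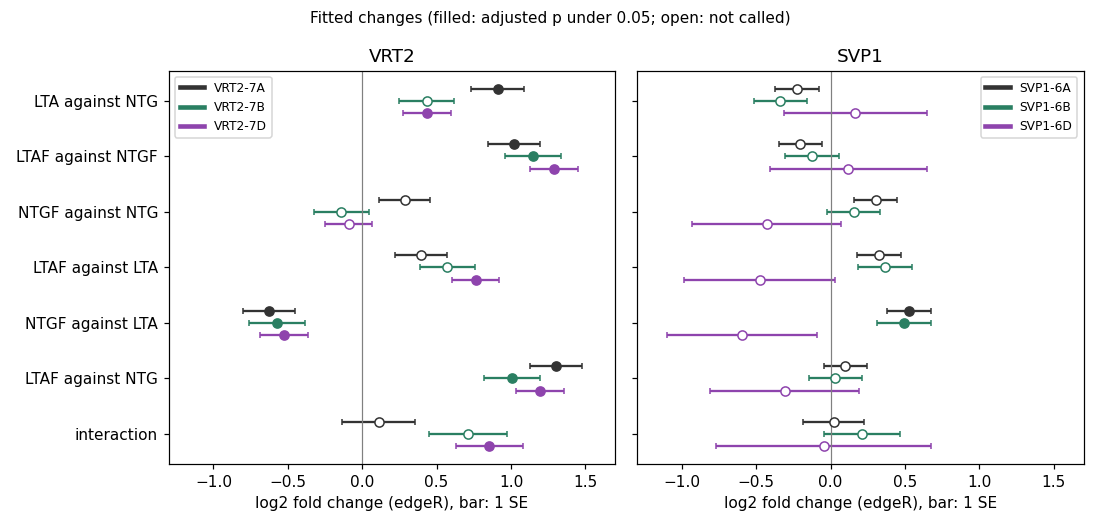
Log2 fold change (horizontal axis, bar 1 SE, edgeR fit of all 12 libraries) of the VRT2 copies (left) and SVP1 copies (right) in 6 comparisons and the interaction, with filled points for an adjusted p under 0.05. VRT2 copies lie at 1.005 to 1.30 in LTAF against NTGF and NTG, and the called SVP1 changes are 0.53 and 0.49 in NTGF against LTA.

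The share of each copy in the summed VRT2 level was compared between groups. VRT2-7A held 30.9% ± 0.640 of the summed VRT2 CPM in LTAF, 33.8% ± 0.851 in NTGF, 35.0% ± 0.784 in LTA and 27.9% ± 1.73 in NTG (SD, n = 3 each). Its mean share was lowest in NTG, where no NTG library overlapped with any of the other 9. How often the shares of other genes' copies separate in this way was not counted. VRT2-7D held 37.2% ± 0.224 in LTAF, 34.1% ± 2.12 in NTGF, 32.8% ± 0.874 in LTA and 36.3% ± 0.257 in NTG, and VRT2-7B held 32.0% ± 0.526 in LTAF, 32.1% ± 1.78 in NTGF, 32.2% ± 1.34 in LTA and 35.7% ± 1.62 in NTG. Shares were taken without gene lengths, which were not used here, so a share cannot be read as a level per length. Reads from near-identical copies can also be divided between them by the counting. Differences in share between groups can therefore include reads counted under another copy, which was not tested.

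**Figure D3:**
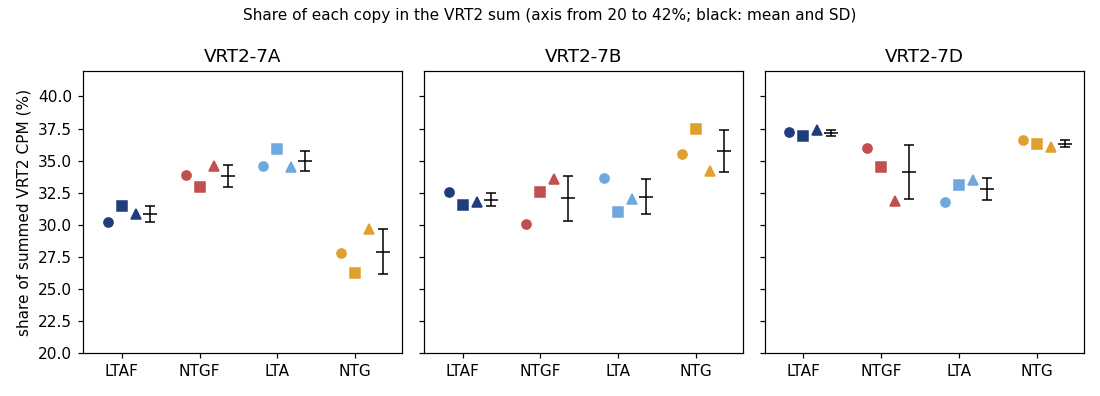
Share of each VRT2 copy in the summed VRT2 CPM of a library (vertical axis in %, from 20 to 42) in the LTAF, NTGF, LTA and NTG libraries, with the mean and SD in black. VRT2-7A lies at 26.2 to 29.7% in NTG and at 30.2 to 35.9% in the other groups, and VRT2-7D is at its highest mean, 37.2%, in LTAF.

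The test of whether copies changed by different amounts used the log2 ratio of 2 copies in each library (prior count of 2). Averaged over unfrozen and frozen plants, acclimation changed the ratio of VRT2-7A to VRT2-7B by 0.17 and that of VRT2-7A to VRT2-7D by 0.11. The exact two-sided permutation p values within strata were 0.155 and 0.43 (0.372 and 0.573 adjusted over 12 tests, the smallest possible p being 0.005). These averages join opposite changes: the ratio of VRT2-7A to VRT2-7B was 0.48 higher in LTA than in NTG and 0.13 lower in LTAF than in NTGF, and that of VRT2-7A to VRT2-7D was 0.47 higher in LTA and 0.26 lower in LTAF. In each of these 4 comparisons of 3 against 3 libraries the groups did not overlap. The exact two-sided permutation p was then 0.1, the smallest such a comparison allows, and 0.277 after adjustment over 36 tests chosen after the data were seen. None of the 12 tests planned for the 2 genes passed, the lowest adjusted p being 0.34 by the exact permutation test.

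SVP1-6A lay at 24.8, 18.5 and 22.5 CPM in LTAF, at 21.97, 25.4 and 28.3 in NTGF, at 18.8, 16.7 and 17.0 in LTA and at 20.1, 21.3 and 20.01 in NTG. SVP1-6B lay at 23.6, 17.3 and 26.4 CPM in LTAF, at 21.1, 23.6 and 28.6 in NTGF, at 16.8, 19.9 and 15.4 in LTA and at 22.3, 20.04 and 23.4 in NTG. Both copies had their lowest mean in LTA and their highest in NTGF. Counts behind these values ran from 294 to 582.

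SVP1-6D had few reads. It had 10, 11 and 9 counts in the LTAF libraries, 5, 12 and 13 in NTGF, 15, 22 and 10 in LTA and 27, 8 and 18 in NTG, so 9 of the 12 libraries reached 10 counts. Its share of the summed SVP1 CPM was 1.34% ± 0.331 in LTAF, 1.05% ± 0.397 in NTGF, 2.26% ± 0.659 in LTA and 1.68% ± 0.849 in NTG (SD, n = 3 each). Nearly all counted SVP1 reads were thus assigned to SVP1-6A and SVP1-6B, which held shares near each other, at 49.0% ± 2.97 and 49.7% ± 3.16 in LTAF and at 47.5% ± 3.20 and 50.8% ± 2.46 in NTG. Whether reads of SVP1-6D were counted under another copy was not tested. With SE of 0.48 to 0.72 on the log2 scale, no change of SVP1-6D was called and small changes of it were not detectable at this depth.

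In LTA against NTG no SVP1 copy was called, where 38% of tested models were. SVP1-6A averaged 17.5 ± 1.12 CPM in LTA and 20.5 ± 0.730 in NTG (log2 fold change -0.23 ± 0.15, edgeR adjusted p = 0.24), and its LTA and NTG libraries did not overlap. SVP1-6B averaged 17.4 ± 2.31 CPM in LTA and 21.9 ± 1.74 in NTG (-0.34 ± 0.18, adjusted p = 0.16), again without overlap. These 2 copies therefore lay on the other side of zero from VRT2 without passing the test. The separation of their libraries was not counted over all tested models. Scaling by library totals, which lowers LTA against NTG for all genes, called both lower, with log2 fold changes of -0.57 and -0.68 (edgeR adjusted p 0.00713 and 0.00659). Under it 22347 of the 69693 tested models were called lower, in place of 12600.

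In frozen crowns, SVP1-6A averaged 21.9 ± 3.20 CPM in LTAF and 25.2 ± 3.18 in NTGF (log2 fold change -0.20 ± 0.15, edgeR adjusted p = 0.282). SVP1-6B averaged 22.4 ± 4.63 CPM in LTAF and 24.4 ± 3.79 in NTGF (-0.12 ± 0.18, adjusted p = 0.61). The libraries of LTAF and NTGF overlapped for all 3 SVP1 copies, and none was called, where 39.8% of tested models were. In LTAF against NTG the changes were 0.10 ± 0.14 for SVP1-6A and 0.03 ± 0.18 for SVP1-6B. Neither was called, where 45% of tested models were.

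Freezing gave positive values for these 2 copies that did not pass the test. Among tested models 25.8% passed in NTGF against NTG and 5.91% in LTAF against LTA. In NTGF against NTG the log2 fold change was 0.30 ± 0.14 for SVP1-6A (edgeR adjusted p = 0.145) and 0.15 ± 0.18 for SVP1-6B (adjusted p = 0.57). In LTAF against LTA it was 0.32 ± 0.15 for SVP1-6A (adjusted p = 0.228) and 0.37 ± 0.18 for SVP1-6B (adjusted p = 0.273). Without LTAF replicate 2 and NTGF replicate 1 both were called higher in LTAF than in LTA, at 0.43 and 0.52 (adjusted p 0.0392 and 0.0399), and SVP1-6A in NTGF against NTG at 0.36 (adjusted p = 0.0499). That setting was chosen after seeing the data. In LTAF against LTA it called 7109 of 72185 tested models higher and 6276 lower, in place of 2783 and 1338 of 69693. In NTGF against NTG it called 11112 higher and 10030 lower, in place of 9879 and 8123. In the main fit the interaction was 0.02 ± 0.20 for SVP1-6A and 0.21 ± 0.25 for SVP1-6B (edgeR adjusted p 0.961 and 0.629). Among tested models 11% had a called interaction term.

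The called changes of SVP1 were in NTGF against LTA, the highest group against the lowest. SVP1-6A averaged 25.2 ± 3.18 CPM in NTGF and 17.5 ± 1.12 in LTA, 1.44-fold, with a log2 fold change of 0.53 ± 0.15 (edgeR adjusted p = 0.0131). SVP1-6B averaged 24.4 ± 3.79 CPM in NTGF and 17.4 ± 2.31 in LTA, 1.41-fold, at 0.49 ± 0.18 (adjusted p = 0.0473). So 2 of 3 SVP1 copies rose and 3 of 3 VRT2 copies fell in this comparison, in which 19.8% of tested models were called higher and 20.3% lower. The call of SVP1-6A ended without LTA replicate 2 or 3 (adjusted p 0.053 and 0.0508), and that of SVP1-6B held in 4 of 12 fits with a library left out and ended without LTA replicate 1 or 3, LTAF replicate 1, NTG replicate 1, 2 or 3 or NTGF replicate 2 or 3, with an adjusted p of up to 0.16. The call of SVP1-6B also ended with no filter (edgeR adjusted p = 0.0995) and with high-confidence models only (0.0653).

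By mean level SVP1-6A and SVP1-6B both ran NTGF, LTAF, NTG and LTA from high to low, and no neighbours in that order differed by the edgeR test. SVP1-6D ran LTA, NTG, LTAF and NTGF, at 0.816 ± 0.287, 0.730 ± 0.379, 0.586 ± 0.0364 and 0.542 ± 0.253 CPM, with no pair of groups called. The ratio of SVP1-6A to SVP1-6B changed by 0.02 with acclimation and by 0.05 with freezing on the log2 scale, for which the exact permutation p was 0.755 and 0.57.

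The ratio of VRT2 to SVP1 separated all 4 groups. Summed over copies, VRT2 lay at 202 ± 39.7 CPM in LTAF, 90.7 ± 14.4 in NTGF, 135.2 ± 10.6 in LTA and 90.2 ± 2.45 in NTG, and SVP1 at 44.9 ± 7.38, 50.2 ± 7.15, 35.7 ± 2.47 and 43.1 ± 1.35 CPM in the same groups (SD, n = 3). The VRT2 sum was 4.56, 4.29 and 4.58 times the SVP1 sum in the LTAF libraries, 1.77, 1.81 and 1.83 times in NTGF, 3.79, 3.82 and 3.75 times in LTA and 2.03, 2.15 and 2.10 times in NTG. No library overlapped with another group, and the order from high to low was LTAF, LTA, NTG and NTGF. On the log2 scale this ratio averaged 2.16 ± 0.05 in LTAF, 0.85 ± 0.02 in NTGF, 1.92 ± 0.01 in LTA and 1.06 ± 0.04 in NTG. In LTAF and NTGF the sums of the replicates spread widely and in step, so that LTAF replicate 2, lowest for both genes, lay at 4.29 beside 4.56 and 4.58. The ratio is taken within a library and does not depend on the scaling between libraries. It was set on counts without gene lengths, so its change between groups can be read but its size does not say which gene is more abundant. It was given no test, being a score over members chosen with earlier results of these data known. How many other pairs of genes separate the 4 groups in this way was not counted.

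**Figure D4:**
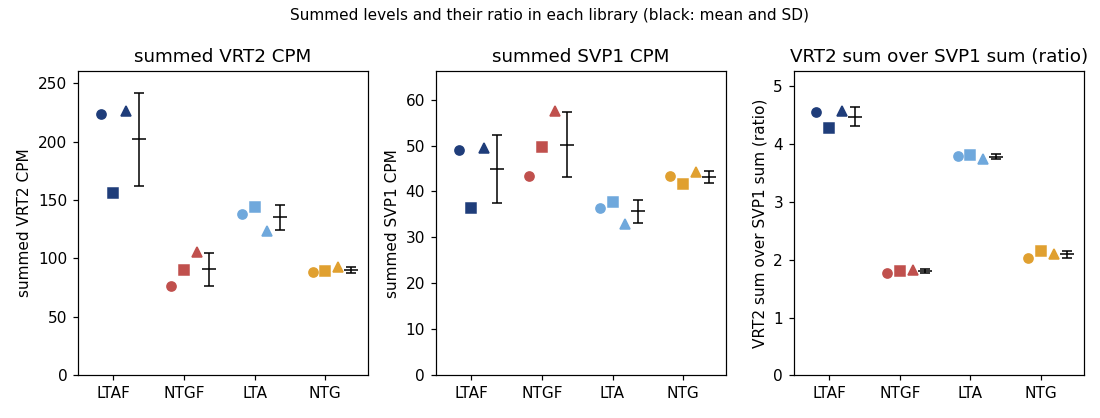
CPM summed over the 3 copies of VRT2 (left) and of SVP1 (middle), and the ratio of the sums (right), in each LTAF, NTGF, LTA and NTG library, with the mean and SD in black. The ratio lies at 4.29 to 4.58 in LTAF, 1.77 to 1.83 in NTGF, 3.75 to 3.82 in LTA and 2.03 to 2.15 in NTG, without overlap between groups, while the SVP1 sums overlap between LTAF and each other group.

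The genes most like the summed VRT2 profile were sought among 57590 tested high-confidence models. Likeness was the root mean square difference of log2 CPM over the 12 libraries, each gene centred on its own mean. The nearest was TraesCS2D01G288600, at a difference of 0.0796, followed by TraesCS3B01G131500 at 0.102, where the VRT2 profile itself had a root mean square spread of 0.503. TraesCS2D01G288600 averaged 6.38 ± 0.31 log2 CPM in LTAF, 5.15 ± 0.34 in NTGF, 5.71 ± 0.13 in LTA and 5.25 ± 0.11 in NTG (SD, n = 3 each). For SVP1, whose spread was 0.224, the nearest were TraesCS3D01G053600 at 0.0766 and TraesCS5D01G369600 at 0.0803. The 12 libraries share their groups and scaling, and the files give these identifiers no name.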

How the data were processed

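RNA sequencing libraries came from crowns of 12 samples, with Trizol extraction and Illumina libraries per the labels' protocols. The authors deposited whole-number read counts per gene model, with 12 library columns per the file headers. The aligner, counter and build used were not given in the sources used here, and neither was how reads shared by several copies were counted. The reference gene table matched 0 identifiers, so no name, sequence or length was taken from it.

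All counts entered edgeR 4.0.16 (R 4.3.3) with TMM scaling, filterByExpr (minimum count 10, leaving 69693 models), 1 mean per group, the robust quasi-likelihood F test and Benjamini-Hochberg adjustment over all tested models, with genes called at an adjusted p under 0.05. The SE is the fold change divided by the square root of F. The biological coefficient of variation was 0.273. Copy ratios were compared with exact permutation tests. Alternatives were RLE or library-total scaling, no filter, high-confidence models only, DESeq2 1.42.0, limma-voom (limma 3.58.1), the replicate number as a block, fits of 2 groups and leaving out each library. The steps were tested on simulated counts. The copies of VRT2 and SVP1, the lists and the tests were chosen with earlier results of these data known. The genes named beside the 6 copies are the 2 nearest in profile to each gene's sum. No replicates were near-identical. The labels say biological replicates, and p-values measure the spread between these samples. Counting error is included in that spread, and total counts of 17871036 to 21491305 set the depth.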

Additional observations from a re-analysis of the deposited data

Results flagged for a closer look

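The freezing response of VRT2-7D differed between acclimated and unacclimated plants by the interaction term, with a difference of 0.85 ± 0.23 on the log2 scale (SE; edgeR adjusted p = 0.0344). The 3 LTAF libraries all lay above the 3 LTA libraries, with a log2 fold change of 0.76, while the NTGF and NTG libraries overlapped, with a log2 fold change of -0.09. How many tested models separate LTAF from LTA was not counted. Over the 12 fits with a library left out the term ran from 0.76 to 1.04 and the adjusted p from 0.00471 to 0.0948. The call held in 2 of these fits, and it was lost with the replicate number as a block (edgeR adjusted p = 0.0772). VRT2-7A and VRT2-7B had no called term in the main fit, where 11% of tested models had one.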

How the results depend on the processing

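VRT2 was called higher in LTAF than in NTGF and than in NTG, 3 of 3 copies each, under all the alternatives run. Members called higher in LTA than in NTG numbered 1 in place of 2 with RLE scaling, library totals, no filter or the replicate block. With a library left out they numbered 1 to 2. Library totals called 2 members lower in place of 0, and 22347 of the 69693 tested models lower in place of 12600. Members called higher in NTGF than in LTA numbered 1 in place of 2 with no filter, high-confidence models only or the replicate block. With a library left out they numbered 0 to 2, and those called lower 0 to 3. In LTAF against LTA the count called higher was 0 to 2 with a library left out. It was 5 in place of 1 without LTAF replicate 2 and NTGF replicate 1, a setting chosen after seeing the data. In that setting 7109 of 72185 tested models were called higher in LTAF against LTA, in place of 2783 of 69693. The same setting also gave 1 in place of 0 in NTGF against NTG. The interaction gave 2 in place of 1 in that setting and with library totals, 0 with the replicate block and 0 to 2 with a library left out. Fits with a library left out hold fewer samples, and the causes of these moves were not tested.

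Some values that were not called changed sign. With library totals these were SVP1-6D at -0.18 in LTA against NTG and 0.18 in the interaction, VRT2-7A at -0.0272, SVP1-6A at -0.0120 and SVP1-6B at -0.16 in NTGF against NTG, and SVP1-6A at -0.34 and SVP1-6B at -0.42 in LTAF against NTG. Without the 2 libraries that stood apart SVP1-6D was at -0.25 in LTAF against NTGF. With a library left out, SVP1-6D ran from -0.21 to 0.52 in LTA against NTG, -0.22 to 0.39 in LTAF against NTGF, -0.68 to 0.0455 in LTAF against NTG and -0.40 to 0.33 in the interaction. SVP1-6B ran from -0.25 to 0.0172 in LTAF against NTGF and -0.0910 to 0.11 in LTAF against NTG. VRT2-7B ran from -0.29 to 0.0107 in NTGF against NTG. In the interaction VRT2-7A ran from -0.00282 to 0.28 and SVP1-6A from -0.0788 to 0.16. Of the copy ratios, VRT2-7A to VRT2-7D ran from -0.0297 to 0.0284 for freezing, and SVP1-6A to SVP1-6B from -0.0152 to 0.0886 for acclimation and -0.0123 to 0.11 for freezing. The choice of likeness mattered: by Pearson correlation 1 of the 2 genes nearest VRT2 and 0 of the 2 nearest SVP1 were kept.

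No pairing of the samples by replicate number was seen. Deviations of same-numbered libraries from their group means correlated by -0.437 to 0.201 across genes, and 2 of 18 pairs were over 0.1. Of 12 libraries, 0 correlated best with their own number. Deviations within a group depend on one another, and LTAF replicate 2 and NTGF replicate 1, which stood apart, correlated by 0.437. These correlations therefore cannot show that the samples were unpaired. The block lost 3 calls, those of VRT2-7D in LTA against NTG (adjusted p 0.0812) and the interaction (0.0772) and of SVP1-6B in NTGF against LTA (0.0783).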

Other observations

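The 5 tested high-confidence models on either side of each VRT2 and SVP1 copy, in identifier order, were counted as a description of where the copies lie. Of these 60 neighbours, LTA against NTG called 12 higher and 20 lower, LTAF against NTGF 8 higher and 20 lower, and NTGF against NTG 7 higher and 2 lower. Over all tested models the shares called higher and lower were 20% and 18.1% in LTA against NTG, 20.2% and 19.6% in LTAF against NTGF, and 14.2% and 11.7% in NTGF against NTG. In LTAF against LTA 1 was called higher and 0 lower, beside 3.99% and 1.92% of all tested models. Neighbours on the 3 homoeologous chromosomes can be copies of one another and can share reads.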
